A study of Mus musculus with 12 samples.

Results

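The response of mouse embryonic fibroblasts to hypoxia was compared between cells labelled WT and cells labelled TAZKo. All 12 of the 12 libraries of the series entered the comparison, 3 in each of 4 groups: WT in normoxia, WT after 24 h of hypoxia, TAZKo in normoxia and TAZKo after 24 h of hypoxia. The fibroblasts carried the strain label C57BL/6 and grew in DMEM with fetal bovine serum, and hypoxia was applied in a hypoxia workstation. TAZKo stands for cells without tafazzin, and the WT cells are described as isogenic to them. How the tafazzin gene was disrupted, whether either genotype is 1 clone, and the oxygen level are not given in the sources used here. For each gene the quantity reported is the interaction, that is, the log2 hypoxia response of TAZKo minus the log2 hypoxia response of WT. A negative interaction means a smaller rise or a larger fall in TAZKo. The title of the series asks whether defective cardiolipin remodelling weakens HIF-1α expression in hypoxia.

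Tafazzin is a mitochondrial transacylase that remodels cardiolipin, the signature lipid of the inner mitochondrial membrane, and its loss causes Barth syndrome. In hypoxia, prolyl hydroxylases stop marking HIF-1α for destruction, and the HIF complex switches on genes of glucose uptake, glycolysis, angiogenesis and acid export. A second programme, driven by the transcription factor ATF4, answers mitochondrial and amino acid stress with genes for amino acid transport and synthesis. A further programme, driven by SREBP2, sets the enzymes of cholesterol synthesis, a pathway that uses oxygen at several steps.

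Between 21039451 and 31204510 reads per library were counted on genes, so that 3 counts corresponded to 0.0927 to 0.1501 CPM, the unit of level used here, in which counts are scaled to the library's size. The tafazzin gene, Taz (ENSMUSG00000009995, chrX:74281912-74290151 in GRCm38, plus strand), was not lower in the libraries labelled TAZKo. Its level was 38.0, 33.3 and 32.7 CPM in WT normoxia, 25.5, 26.4 and 23.5 in WT hypoxia, 45.8, 39.8 and 40.95 in TAZKo normoxia and 33.6, 32.8 and 35.1 in TAZKo hypoxia. A count over the whole gene cannot show which exons were read, so the genotype rests on the labels, and every direction below is between libraries labelled TAZKo and WT. The hypoxia response of Taz did not pass the test for a difference (interaction 0.14, edgeR adjusted p = 0.587). Fibroblast markers were present (Col1a1 at 2625 to 4010 CPM in WT and 1125 to 1424 in TAZKo, with Vim, Pdgfra and Dcn). Of 8 fibroblast markers tested, 4 were higher and 2 lower in TAZKo in normoxia, and 3 higher and 2 lower in hypoxia. However, Thy1 and Lum stayed under 1 CPM in every library and Col1a2 at 1.498 to 6.06 CPM. The keratin gene Krt14 stood at 100.4 to 285 CPM. The summed level of epithelial markers was 357.6 to 440.0 CPM in WT normoxia, 306 to 335 in WT hypoxia, 200.5 to 209 in TAZKo normoxia and 249 to 257 in TAZKo hypoxia, and that of endothelial markers 18.7 to 21.9, 14.2 to 19.97, 5.79 to 8.08 and 4.17 to 5.49; both moved with the labelled genotype. Epithelial markers also moved in the interaction: all 3 tested (Krt8, Krt14 and Krt18) had an unadjusted p under 0.05 with a median of 0.64, and Krt14 passed (0.64, edgeR adjusted p = 0.00771), falling by 0.29 in WT and rising by 0.36 in TAZKo. Of these lists, 4 of 7 epithelial markers (Epcam, Cdh1, Krt5 and Cldn4) and 4 of 6 endothelial markers (Pecam1, Cdh5, Emcn and Vwf) stayed under 1 CPM in every library. Of 3 endothelial markers tested, 2 were lower and 1 higher in TAZKo in normoxia. Pecam1 had 0.499 to 0.631 CPM in TAZKo normoxia against 0.112 to 0.362 in WT normoxia. Leukocyte markers summed to 11.4 to 11.7 CPM in WT normoxia, 19.1 to 23.8 in WT hypoxia, 12.02 to 12.7 in TAZKo normoxia and 16.6 to 18.5 in TAZKo hypoxia, with Cd68, Cd14 and Csf1r present, Adgre1 at 0 and Ptprc at or under 0.0346 CPM. Muscle markers summed to 4.96 to 6.55, 10.6 to 12.6, 11.19 to 12.4 and 16.9 to 18.1 CPM in the same order, from Des and Tnnt2, with Myod1 and Myf5 at 0; Des and Tnnt2 were higher in TAZKo in both conditions, and their interactions of -0.50 and -0.45 did not pass (edgeR adjusted p = 0.267 and 0.277). Within the leukocyte list, Lyz2 had 1.62 to 2.37 CPM in TAZKo normoxia against 0.360 to 0.375 in WT normoxia, and Csf1r 0.821 to 1.31 against 1.61 to 2.26. The part of these markers in the results was not tested. One normoxic WT library, number 1, stood apart from the others on principal component 3, which held 6.15% of the variance. In such bulk RNA, fewer cells of a type and less RNA per cell cannot be told apart. Nothing in the labels says that the 3 libraries of a group came from separate cultures, so each p-value measures only the spread between these libraries.

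Hypoxia acted on much of the transcriptome in both genotypes, and the size of the response differed for a small share of genes. Of 14408 genes tested, 7355 responded in WT (51% of genes tested) and 6309 in TAZKo (43.8%), at an edgeR adjusted p under 0.05. The interaction passed the same threshold for 350 genes (2.43%), of which 104 were higher (0.722%) and 246 lower (1.71%) in TAZKo relative to WT. Before adjustment, 2273 of the 14408 had an edgeR interaction p under 0.05, the comparison for the unadjusted counts below. The median interaction was 0.58 among the higher genes, -0.73 among the lower genes and -0.02 over all genes tested. In all 350 genes the 9 possible hypoxia minus normoxia differences did not overlap between the 2 genotypes. The same held for 10.2% of all genes tested. The 350 were chosen on these same values, so this is a description and no support. The number of genes depended on single libraries: it was 556 without WT normoxia library 1, 711 without WT hypoxia library 1, and 174 to 216 when WT hypoxia library 2 or 3 or any TAZKo library was left out, while the number of lower genes was 160 without WT normoxia library 3. The share of higher genes was less firm than the number alone shows. It was 29.7% here, 40.7% with upper quartile scaling, 42.0% with DESeq2, 55.0% with no filter on low counts and 58.4% without WT hypoxia library 1.

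A smaller response in TAZKo was the common pattern among the genes past the interaction threshold. Its share over all genes tested was not counted, and over all genes more responded in WT than in TAZKo (51% against 43.8%). Among the 350 genes, 213 rose less in TAZKo than in WT and 61 fell less, so that 78.3% had the smaller response in TAZKo; over the 12 fits without 1 library and the 11 alternatives in which it was computed, that share lay between 74.6% and 83.2%. The share that rose less was less firm, at 60.9% here, 35.6% without WT hypoxia library 1 and 38.8% with no filter on low counts. A larger response in TAZKo was seen for 29 genes that rose more and 19 that fell more. In 28 genes both responses passed the threshold in opposite directions, 14 of them rising in WT and falling in TAZKo and 14 the reverse. The response passed in WT and not in TAZKo for 80 genes, in TAZKo and not in WT for 23, and in both for 247.

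**Figure D1:**
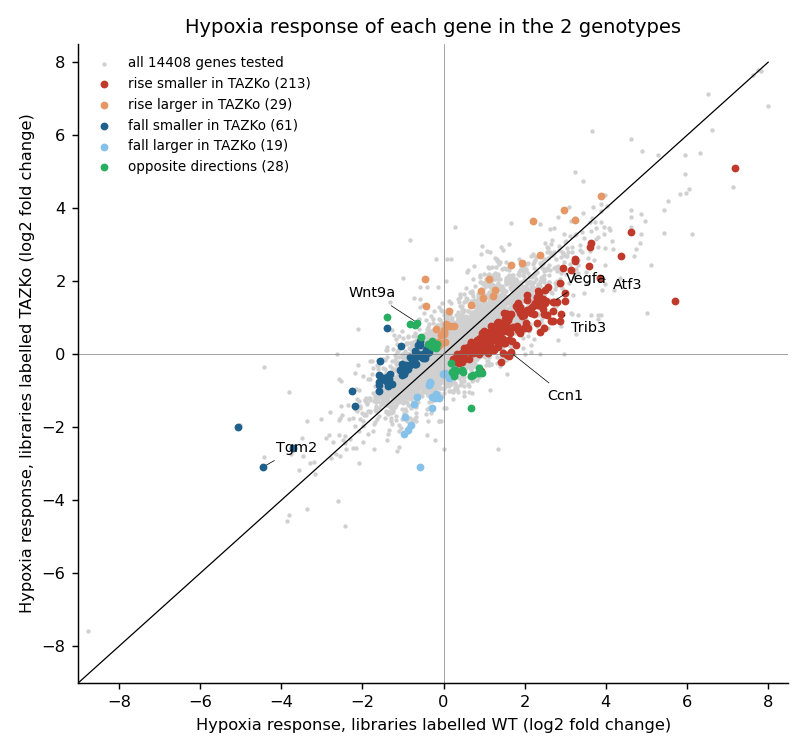
Each point is 1 gene, with its log2 hypoxia response in libraries labelled WT on the horizontal axis and in libraries labelled TAZKo on the vertical axis; coloured points are the 350 genes past the interaction threshold, by class, and the diagonal line marks equal responses. Most coloured points lie to the right of 0 and under the diagonal, where the 213 genes with a smaller rise in TAZKo are.

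The difference arose about as often from the normoxic level as from the hypoxic level. The genotype difference was larger in normoxia for 180 of the 350 genes (51.4%) and larger in hypoxia for 170. Over all 14408 genes tested it was larger in normoxia for 7128 and in hypoxia for 7280, a like split. Libraries labelled TAZKo and WT differed in normoxia and not in hypoxia for 91 genes, in hypoxia and not in normoxia for 98, in both with the same sign for 111 and in both with opposite signs for 50; passing in only 1 condition was not itself a test of the difference, which the interaction supplies. For comparison, 4384 of all genes tested (30.4%) differed between genotypes in normoxia and 4723 (32.8%) in hypoxia. Among the 213 genes with a smaller rise, 126 were higher in TAZKo already in normoxia and 121 were lower in TAZKo in hypoxia. The 61 genes with a smaller fall leaned to the hypoxic side, with the larger genotype difference in hypoxia for 40 and in normoxia for 21.

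**Figure D2:**
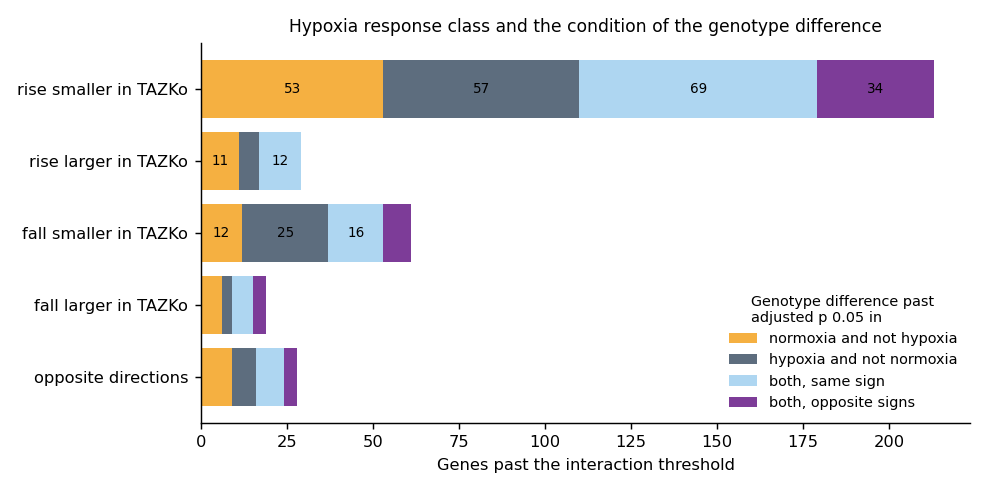
Bars count the 350 genes past the interaction threshold by response class, split by the condition in which the genotype difference passed an adjusted p of 0.05. Of the 213 genes that rose less in TAZKo, 53 differed between genotypes in normoxia and not hypoxia, 57 in hypoxia and not normoxia, 69 in both with the same sign and 34 in both with opposite signs.

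ATF4 and 11 of its effector genes rose less in TAZKo. The genotype difference was larger in normoxia than in hypoxia for 19 of the list's 25 members (7128 of all 14408 genes). Of those 25 genes tested, 12 had a lower interaction and 0 a higher one. All 25 had a value below 0 (7587 of all 14408 genes did), with a median interaction of -0.72 against -0.02 for all genes. The median response was 1.59 in WT and 0.80 in TAZKo. In normoxia, 21 of the 25 were higher in TAZKo (15.6% of all genes were) and 1 was lower, with a median difference of 0.77. In hypoxia, 13 were higher (15.8% of all genes) and 6 lower (16.9%), with a median of 0.34. The list's mean level, in log2 units relative to WT normoxia, was 0.88 ± 0.06 in the normoxic TAZKo group, and reached 1.64 ± 0.11 with hypoxia in WT and 1.66 ± 0.10 in TAZKo (SD, n = 3), so the hypoxic groups overlapped. Without WT normoxia library 1, 19 members had a lower interaction in place of 12.

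Many ATF4 targets carry a C/EBP-ATF response element (CARE) near the start site. The letters TGATGNAA, read on both strands, were found in the RefSeq promoter sequence (GRCm38.p6, 250 bases before to 50 after the start) of 6 of the 12 members with a lower interaction, all of which had a promoter entry, and of 9 of the 23 tested members with an entry (39.1%). The same letters were found in 2.72% of the 10300 tested genes with an entry, in 12 of 188 genes (6.38%) with a lower interaction and in 0 of 78 with a higher one. The 12 of 188 include the 6 list members just counted, so they are not a separate comparison. For orientation, 100-base stretches before the start site of 4 members are shown 5′ to 3′ along the gene, with the matching letters in capitals: Fgf21 from chr7:45615576-45615675 (minus strand), Atf3 from chr1:191183390-191183489 (minus), Chac1 from chr2:119351003-119351102 (plus) and Slc7a11, with a pair of matches, from chr3:50443614-50443713 (minus).
Fgf21: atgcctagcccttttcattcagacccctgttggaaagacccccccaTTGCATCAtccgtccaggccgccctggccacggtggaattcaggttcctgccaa
Atf3: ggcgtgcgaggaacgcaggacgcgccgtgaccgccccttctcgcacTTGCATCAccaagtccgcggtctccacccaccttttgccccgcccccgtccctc
Chac1: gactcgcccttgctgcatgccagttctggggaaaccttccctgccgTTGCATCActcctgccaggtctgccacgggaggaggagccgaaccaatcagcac
Slc7a11: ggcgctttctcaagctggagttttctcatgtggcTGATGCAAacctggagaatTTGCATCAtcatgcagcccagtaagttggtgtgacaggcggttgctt
The sterol element letters TCACNCCAC, searched in the same way, were found in 0 of the 11 cholesterol genes with a lower interaction and an entry. They were found in 1 of the 18 tested cholesterol genes with an entry and in 1.40% of the 10300 promoters. Among all genes with an entry, 7 of 188 with a lower interaction (3.72%) held them, and 0 of 78 with a higher one. A match describes these letters only, not binding, and no match says nothing about the factor.

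Trib3, a pseudokinase that restrains ATF4, had 26.01, 21.5 and 18.0 CPM in WT normoxia, 147, 158 and 181 in WT hypoxia, 121, 116 and 102 in TAZKo normoxia and 259.7, 242 and 229 in TAZKo hypoxia. Its 4 groups did not overlap; TAZKo was higher in both conditions, but the difference narrowed from 2.37 in normoxia to 0.59 in hypoxia (interaction -1.79 ± 0.16 SE, adjusted p = 0.00016). Chac1, a glutathione-degrading enzyme whose promoter is shown above, went from 33.8, 31.4 and 25.7 CPM to 79.3, 95.8 and 103 in WT. In TAZKo it was 117, 121 and 106 CPM in normoxia and 121, 105 and 103 in hypoxia. The TAZKo groups overlapped each other and, in hypoxia, the WT group, and the interaction was -1.68 ± 0.16 (adjusted p = 0.00016). Ddit3, the CHOP factor of the stress response, rose from 21.2, 18.0 and 16.0 to 85.1, 86.6 and 92.6 CPM in WT and from 45.7, 45.6 and 42.5 to 131, 113 and 113 in TAZKo (interaction -0.85 ± 0.13, adjusted p = 0.00446), again with no overlap of groups. Atf4 itself had 426, 367 and 336 CPM in WT normoxia, 744, 814 and 859 in WT hypoxia, 631, 612 and 559 in TAZKo normoxia and 789, 778 and 782 in TAZKo hypoxia. The normoxic groups were apart and the hypoxic groups overlapped (interaction -0.72 ± 0.12, adjusted p = 0.00554).

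Atf3 and Fgf21 followed another course within the same list. Atf3, a stress-induced repressor and activator, had 7.87, 7.85 and 7.10 CPM in WT normoxia and 11.3, 10.4 and 10.1 in TAZKo normoxia. In hypoxia it reached 100.5, 102 and 129.7 CPM in WT and 49.7, 44.9 and 40.8 in TAZKo, so the order of the genotypes reversed (difference 0.48 in normoxia and -1.298 in hypoxia; interaction -1.78 ± 0.16, adjusted p = 0.00016). Fgf21, a hormone released under mitochondrial stress, likewise stood higher in TAZKo normoxia (6.06, 5.81 and 5.69 against 3.10, 2.46 and 2.61 CPM) and lower in TAZKo hypoxia (13.9, 9.93 and 9.23 against 19.3, 14.2 and 19.2). Stc2, a secreted glycoprotein that the HIF list also holds, rose from 1.99, 1.75 and 1.99 to 13.5, 15.6 and 16.4 CPM in WT and from 7.66, 8.32 and 5.35 to 20.7, 19.4 and 17.9 in TAZKo (interaction -1.53 ± 0.22, adjusted p = 0.00267). Asns, asparagine synthetase, did not pass (interaction -0.42, adjusted p = 0.0597), although it was higher in TAZKo in both conditions (1.17 in normoxia and 0.74 in hypoxia).

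Amino acid transport and synthesis shared the pattern of a difference that was larger in normoxia. Among 21 transporters tested, 5 had a lower interaction and 0 a higher one (median -0.31), and the median genotype difference went from 0.50 in normoxia to 0.02 in hypoxia. Slc3a2, the heavy chain of several amino acid exchangers, had 240.3, 215 and 207 CPM in WT normoxia and 463, 432 and 529.5 in WT hypoxia, but 362, 359.7 and 344 in TAZKo normoxia and 361, 365 and 359 in TAZKo hypoxia. It did not move in TAZKo beyond the spread (response 0.03) while it rose by 1.11 in WT (interaction -1.08 ± 0.11, adjusted p = 0.000222). The cystine carrier Slc7a11 had an interaction of -1.42 (adjusted p = 0.0113), which became -1.26 (adjusted p = 0.0512) without WT hypoxia library 3. Among 21 enzymes of serine, folate, asparagine and proline synthesis, 4 had a lower interaction and 0 a higher one; 12 were higher in TAZKo in normoxia and 11 in hypoxia, with medians of 0.49 and 0.26. Aldh1l2, a mitochondrial folate enzyme, had 51.7, 50.9 and 50.6 CPM in WT normoxia, 92.1, 94.4 and 103 in WT hypoxia, 345, 330.4 and 307 in TAZKo normoxia and 404, 400.3 and 381 in TAZKo hypoxia. TAZKo was far higher in both conditions, and the rise was 0.92 in WT and 0.27 in TAZKo (interaction -0.65 ± 0.09, adjusted p = 0.0019); 16.9% of the 50-base words of this gene occur elsewhere among transcripts, so its counts are less certain. Of 20 cytosolic tRNA synthetases, 0 passed the interaction threshold by edgeR or DESeq2 and 8 had an edgeR unadjusted p under 0.05; 13 were higher in TAZKo in normoxia and 9 in hypoxia.

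**Figure D3:**
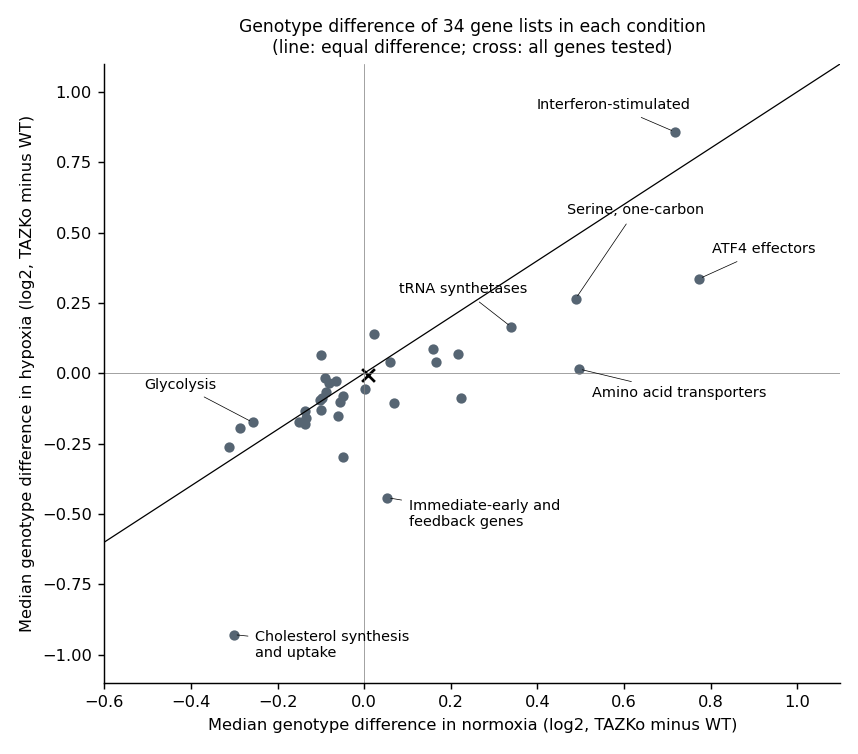
Each point is 1 of 34 gene lists, placed by its median genotype difference (log2, TAZKo minus WT) in normoxia and in hypoxia; the line marks equal differences and the cross all genes tested. ATF4 effectors lie to the right (0.77 in normoxia and 0.34 in hypoxia), and cholesterol genes lie far under the line (-0.30 in normoxia and -0.93 in hypoxia).

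Cholesterol synthesis showed the other pattern, a difference that opened in hypoxia. All 25 genes tested rose in WT (26% of all genes did) and 23 rose in TAZKo (22.2%), and for 15 of them the rise was smaller in TAZKo: these had a lower interaction, and 0 a higher one, with a median interaction of -0.71. The median response was 1.32 in WT and 0.76 in TAZKo. In normoxia 13 were lower in TAZKo (14.9% of all genes) with a median of -0.30, and in hypoxia 23 were lower with a median of -0.93. The genotype difference was larger in hypoxia for all 15 genes with a lower interaction (7280 of all 14408 genes tested). The list's mean level relative to WT normoxia was -0.24 ± 0.01 in the normoxic TAZKo group, and reached 1.45 ± 0.14 with hypoxia in WT but 0.57 ± 0.05 in TAZKo (SD, n = 3), and no library of one genotype reached those of the other in either condition.

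Cyp51, the sterol demethylase of the pathway, had 126, 151 and 144 CPM in WT normoxia, 523, 680.4 and 669.9 in WT hypoxia, 108, 116 and 109.9 in TAZKo normoxia and 235, 257 and 240.0 in TAZKo hypoxia. It lay close together in normoxia and apart in hypoxia (difference -0.33 and -1.35; interaction -1.02 ± 0.14, adjusted p = 0.00178). Msmo1, which removes the next methyl groups and needs oxygen to do so, rose from 42.6, 54.3 and 50.2 to 233, 297 and 301 CPM in WT and from 36.2, 41.5 and 36.3 to 99.7, 106 and 96.0 in TAZKo (interaction -1.09 ± 0.15, adjusted p = 0.00214). Both genes separated all 3 WT hypoxia libraries from all 3 TAZKo hypoxia libraries, and WT hypoxia library 1 was the lowest of its group. Nsdhl and Lss, enzymes of the middle of the pathway, had interactions of -0.84 and -0.83. Fdps, with an interaction of -0.88, has 11.7% of its 50-base words in common with other transcripts, and Hsd17b7 (-1.04) passed in only 3 of the 12 fits that each left out 1 library.

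The enzymes of fatty acid synthesis followed in part. Of 21 genes tested, 5 had a lower interaction and 0 a higher one, and all 5 had the larger genotype difference in hypoxia. In normoxia 6 of the 21 were lower in TAZKo (14.9% of all genes were), and in hypoxia 13 (16.9%). Elovl6, a fatty acid elongase, had 52.6, 67.2 and 67.1 CPM in WT normoxia, 113, 129.98 and 128 in WT hypoxia, 50.9, 51.3 and 51.4 in TAZKo normoxia and 55.6, 57.0 and 62.2 in TAZKo hypoxia. WT hypoxia stood above every other library, and the interaction was -0.80 ± 0.13 (adjusted p = 0.00531). Acly, which supplies acetyl-CoA for both lipid pathways, had an interaction of -0.56 (adjusted p = 0.00531). Scd1, Acsl3 and Hilpda had interactions of -0.47, -0.47 and -0.59, and passed in 5, 2 and 5 of the 12 fits without 1 library.

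**Figure D4:**
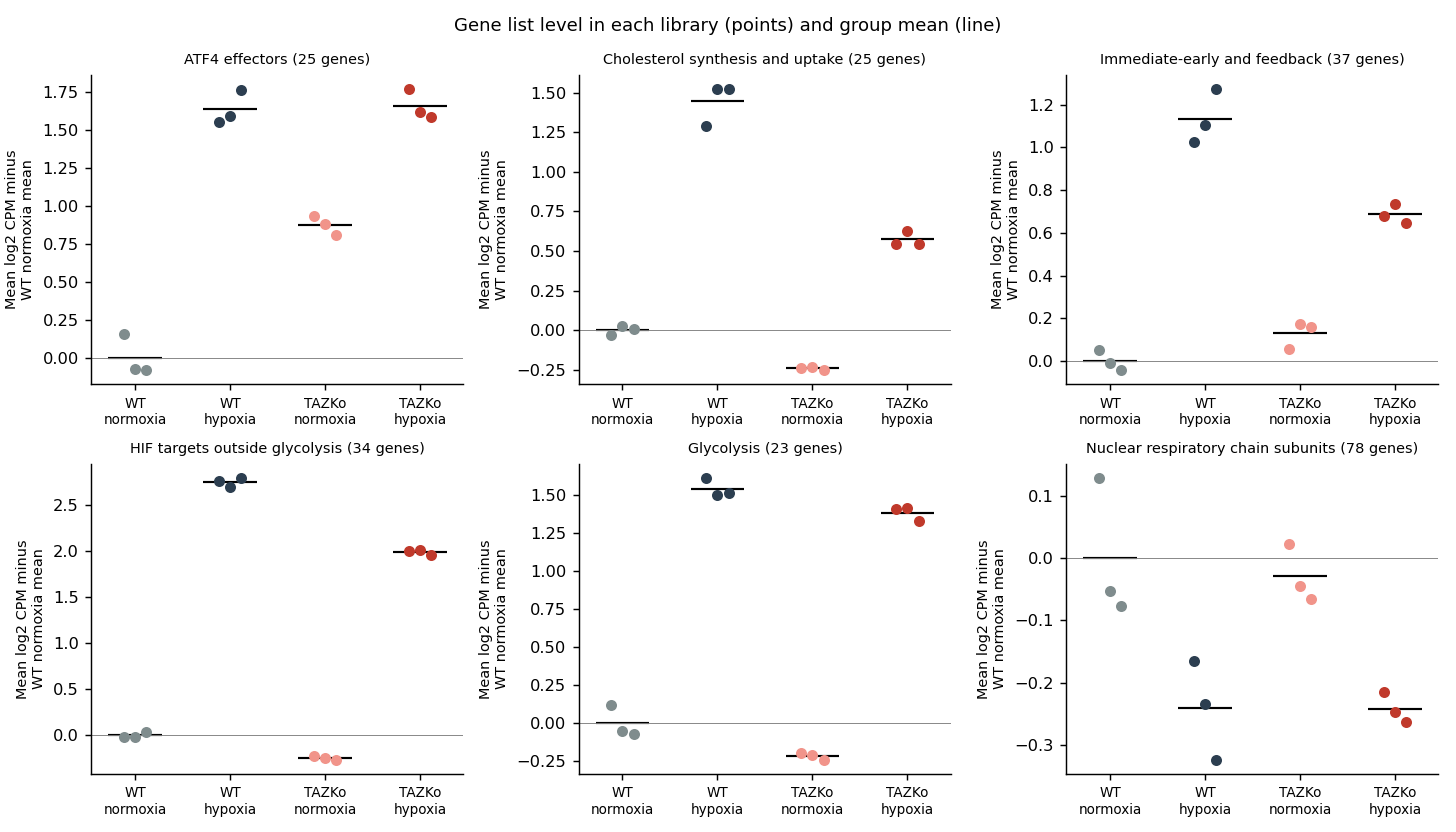
Points give the mean log2 CPM over the tested genes of 6 lists in each library, minus the WT normoxia mean, and lines the mean of the 3 libraries of a group; each panel has its own vertical scale. In ATF4 effectors the TAZKo libraries are high in normoxia and overlap WT in hypoxia, whereas in cholesterol genes they are close in normoxia and lower in hypoxia.

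HIF targets rose strongly in both genotypes, and most did not pass the test for a difference in response. Of 34 targets outside glycolysis, 33 rose in WT and 30 in TAZKo; 7 had a lower interaction and 2 a higher one (the share of all genes was 1.71% and 0.722%), with a median of -0.17 that was -0.10 over genes with a mean of at least 5 CPM. The median response was 2.97 in WT and 2.46 in TAZKo, and the list's mean level rose by 2.75 in WT and 2.24 in TAZKo. Without WT hypoxia library 3, 4 members had a lower interaction in place of 7. Genes of oxygen sensing and HIF itself gave 0 of 9 past the threshold by edgeR or DESeq2 and 2 with an edgeR unadjusted p under 0.05. Hif1a had 178, 274 and 284 CPM in WT normoxia, 370.2, 382 and 383 in WT hypoxia, 162, 211 and 203 in TAZKo normoxia and 264, 273 and 279 in TAZKo hypoxia. Its transcript was lower in TAZKo hypoxia by 0.48 (adjusted p = 0.018), but its interaction was -0.12 ± 0.20 (adjusted p = 0.817) and turned to 0.06 without WT normoxia library 1, the lowest of its group.

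The angiogenic factor Vegfa was among the HIF targets with the largest difference. It had 63.3, 52.6 and 47.3 CPM in WT normoxia, 331, 351 and 383 in WT hypoxia, 116, 106 and 111 in TAZKo normoxia and 308, 301 and 295 in TAZKo hypoxia. The normoxic groups were well apart (difference 1.03) and the hypoxic groups close but not overlapping (difference -0.24, adjusted p = 0.055), so the smaller rise lay in the normoxic level (interaction -1.27 ± 0.13, adjusted p = 0.000241). Pgf, a relative of Vegfa, and Flt1, a receptor for both, behaved likewise, with differences of 0.75 and 0.64 in normoxia, -0.27 and -0.10 in hypoxia, and interactions of -1.02 and -0.74. The vasoconstrictor Edn1 moved on the hypoxic side instead, from 14.6, 15.6 and 15.5 to 44.2, 49.1 and 47.6 CPM in WT and from 9.43, 10.5 and 10.2 to 16.0, 16.8 and 16.5 in TAZKo (difference -0.60 and -1.51; interaction -0.91 ± 0.10, adjusted p = 0.000412). Carbonic anhydrase gene Car9 rose from 4.51, 4.08 and 3.15 to 11.16, 9.02 and 9.72 CPM in WT and stood at 4.80, 3.51 and 4.17 and then 5.25, 4.53 and 5.40 in TAZKo. Its interaction of -1.08 (adjusted p = 0.0179) passed in 8 of the 12 fits without 1 library, with an adjusted p of up to 0.0650.

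Most glycolysis genes rose in both genotypes. Of 23 genes tested, 20 rose in each genotype, and 1 had a higher and 0 a lower interaction by edgeR. An edgeR unadjusted p under 0.05 was found for 13 of the 23, against 2273 of all 14408 genes tested. The interaction was below 0 for 8 of the 23, against 7587 of all 14408 genes tested. DESeq2 gave 3 higher and 0 lower. The median interaction was 0.13, which became 0.07 without WT normoxia library 1 and 0.19 without WT normoxia library 2; 13 of the 23 were lower in TAZKo in normoxia and 9 in hypoxia. Pdk1, which closes pyruvate off from mitochondria, had 90.5, 99.4 and 96.3 CPM in WT normoxia, 586, 624 and 587 in WT hypoxia, 94.6, 96.2 and 94.7 in TAZKo normoxia and 638, 646 and 605 in TAZKo hypoxia. Its genotypes overlapped in both conditions (interaction 0.08 ± 0.08, adjusted p = 0.685). The glucose transporter Slc2a1 rose by 2.41 in WT and 2.46 in TAZKo, with an interaction of 0.05 ± 0.12 that turned to -0.03 without WT normoxia library 1 and to -0.01 with GC and length offsets. Egln3, the hypoxia-induced prolyl hydroxylase, rose by 3.73 and 3.61. The aldolase gene Aldoa was the member that passed, from 813, 677 and 669 to 1823, 1685 and 1734 CPM in WT and from 533, 552 and 544 to 1851, 1870.2 and 1837 in TAZKo. It was lower in TAZKo in normoxia (difference -0.41), with a difference of 0.08 in hypoxia (interaction 0.49 ± 0.10, adjusted p = 0.0182), and 13.5% of its words occur in other genes' transcripts. The HIF target Bnip3, a mitophagy receptor, also had a higher interaction (0.45, adjusted p = 0.045), but it passed in 2 of the 12 fits without 1 library and shares 62.5% of its words.

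Some immediate-early genes, which answer growth signals within minutes, and some matricellular genes had a lower interaction, with differences on both the normoxic and the hypoxic side. A list of immediate-early and feedback genes, compiled after the values were seen, had 13 of 37 tested with a lower interaction and 0 with a higher one (median -0.47), which is a description and no support. Of those 13, 8 rose less in TAZKo, 3 moved in opposite directions (Dusp6, Ier2 and Zfp36) and 2 fell more in TAZKo (Egr1 and Zfp36l1). In hypoxia 22 of the 37 were lower in TAZKo and 1 higher, with a median of -0.44, against 0.05 in normoxia; of the 13 genes, 7 had the larger genotype difference in normoxia and 6 in hypoxia. Fos, a subunit of the AP-1 factor, had 2.52, 2.15 and 2.86 CPM in WT normoxia, 10.9, 11.5 and 17.0 in WT hypoxia, 4.29, 5.16 and 5.97 in TAZKo normoxia and 8.99, 8.06 and 6.73 in TAZKo hypoxia. TAZKo was the higher genotype in normoxia and the lower in hypoxia (interaction -1.78 ± 0.27, adjusted p = 0.00447). Dusp1, a phosphatase that quenches MAP kinases, rose from 6.94, 6.62 and 5.65 to 54.2, 42.5 and 55.3 CPM in WT and from 9.59, 8.75 and 9.43 to 32.7, 29.0 and 27.5 in TAZKo (interaction -1.31 ± 0.16, adjusted p = 0.0013).

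Ccn1, a matricellular protein gene and target of YAP, had the smallest p-value among the named genes. It rose from 141, 132 and 124 to 372, 412 and 463 CPM in WT and stood at 241, 248 and 255 CPM in TAZKo normoxia and 255, 257 and 258 in TAZKo hypoxia. TAZKo lay between the WT groups in both conditions, above WT in normoxia by 0.90 and below it in hypoxia by -0.70 (interaction -1.60 ± 0.11, adjusted p = 1.22e-05). Its relative Ccn2 rose from 15.8, 17.7 and 16.7 to 73.6, 99.4 and 106 CPM in WT and from 23.7, 23.7 and 22.9 to 37.7, 42.5 and 35.9 in TAZKo (interaction -1.75 ± 0.17, adjusted p = 0.00016), with 23.2% of its exons overlapped on the other strand. With Ankrd1, these were the 3 of 22 contractile and YAP target genes that passed, and 0 were higher, so the actin and myosin genes of the list did not pass.

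**Figure D5:**
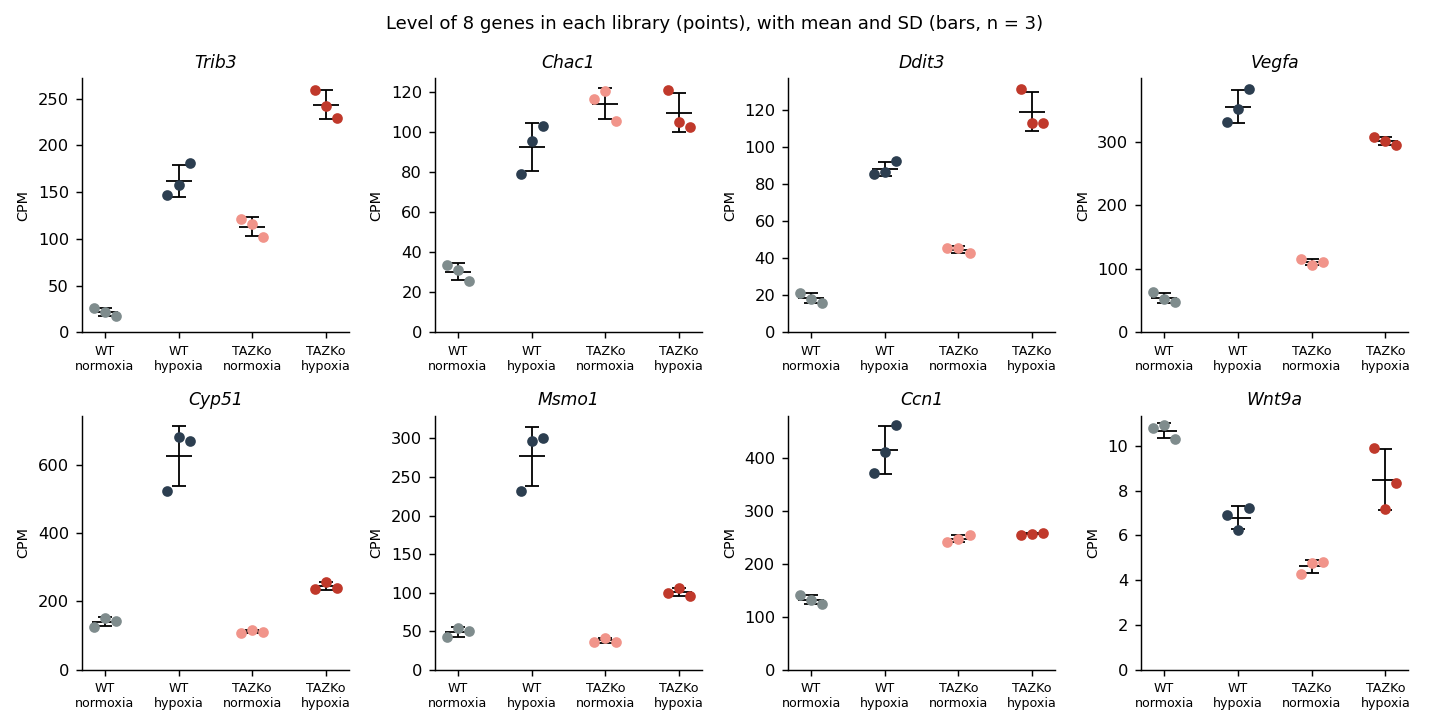
Points are CPM of 8 genes in each library, bars the mean and SD of 3 libraries, and every vertical axis starts at 0. The log2 genotype difference is larger in normoxia for Trib3, Chac1, Ddit3 and Vegfa and larger in hypoxia for Cyp51 and Msmo1. The genotypes cross over in Ccn1, while in Wnt9a they are apart in normoxia and overlap in hypoxia.

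Some genes of the matrix and signalling lists passed, where 1.71% of all genes tested had a lower interaction and 0.722% a higher one. Adamts1, a proteoglycan-cleaving protease, rose from 134, 147 and 139 to 315, 382 and 371 CPM in WT and stood at 154, 157 and 165 and then 173, 195 and 176 in TAZKo (interaction -1.16 ± 0.11, adjusted p = 0.00016). Of 24 matrix proteases and inhibitors, 3 had a lower interaction and 2 a higher one, namely Mmp15 (0.77) and Mmp2 (0.69, adjusted p = 0.0528 without WT hypoxia library 3). Of 18 collagen-modifying enzymes, 2 had a higher interaction and 0 a lower one, while by edgeR 0 of 24 collagens passed, 5 had an unadjusted p under 0.05, and DESeq2 also gave 0. The lysyl hydroxylase Plod1 had 93.4, 75.9 and 79.6 CPM in WT normoxia, 87.4, 79.2 and 86.1 in WT hypoxia, 84.7, 82.0 and 85.4 in TAZKo normoxia and 133, 130.4 and 121 in TAZKo hypoxia. It was raised in TAZKo hypoxia alone among the 4 groups (interaction 0.58 ± 0.11, adjusted p = 0.012). The cell-cycle inhibitor Cdkn1a rose from 20.04, 16.8 and 17.1 to 202, 199 and 246 CPM in WT and from 26.9, 30.6 and 27.8 to 162, 152 and 142 in TAZKo (interaction -1.17 ± 0.14, adjusted p = 0.000601), with 10.5% of its words shared. Together with Plk2 it made 2 of 23 p53 targets and CDK inhibitors. Of 29 NF-kB targets and cytokines, 5 had a lower interaction and 0 a higher one. Ptgs2, the inducible prostaglandin synthase, rose from 8.36, 11.98 and 11.8 to 56.0, 57.0 and 75.5 CPM in WT and from 7.07, 9.01 and 9.15 to 18.1, 17.1 and 17.7 in TAZKo (interaction -1.49 ± 0.21, adjusted p = 0.00247), so its difference lay in hypoxia.

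Of the 104 genes with a higher interaction, 61 fell less in TAZKo, 29 rose more and 14 moved in opposite directions. Podxl, a sialomucin of the cell surface, fell from 428, 421 and 467 to 187, 128 and 125 CPM in WT and from 148, 152 and 151 to 104, 104 and 93.8 in TAZKo. The genotypes differed most in normoxia, at -1.55 against -0.55 in hypoxia (interaction 1.003 ± 0.17, adjusted p = 0.00684). Parvb, a focal adhesion gene, showed the same order, with 46.8, 40.2 and 43.5 CPM in WT normoxia, 10.4, 8.75 and 8.37 in WT hypoxia, 9.38, 7.89 and 8.35 in TAZKo normoxia and 5.05, 4.43 and 3.48 in TAZKo hypoxia (interaction 1.26 ± 0.18, adjusted p = 0.00267). The fibrillin gene Fbn1 rose from 18.3, 17.5 and 16.8 to 36.8, 38.4 and 38.5 CPM in WT and from 3.41, 3.42 and 3.34 to 14.4, 14.5 and 13.2 in TAZKo (interaction 0.94 ± 0.11, adjusted p = 0.000491), with 20.1% of its words shared. TAZKo remained the lower genotype in both conditions. The bicarbonate transporter Slc4a4 likewise started lower and rose more, from 25.2, 28.7 and 27.5 to 89.1, 91.6 and 88.1 CPM in TAZKo and from 62.1, 74.7 and 85.7 to 137, 137 and 146 in WT (interaction 0.81 ± 0.13, adjusted p = 0.00597). Igfbp6, an IGF-binding protein gene, was level between genotypes in normoxia (difference -0.08) and higher in TAZKo hypoxia, at 195, 189 and 191 against 125, 99.1 and 105 CPM (interaction 0.88 ± 0.15, adjusted p = 0.00777).

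Few genes moved in opposite directions. Wnt9a, a Wnt ligand gene, fell from 10.8, 10.9 and 10.3 to 6.90, 6.24 and 7.24 CPM in WT and rose from 4.29, 4.77 and 4.79 to 9.91, 7.20 and 8.33 in TAZKo. WT was higher in normoxia, and the hypoxic groups overlapped (interaction 1.51 ± 0.17, adjusted p = 0.000399). Inka2, a kinase inhibitor gene, fell from 17.6, 18.1 and 17.7 to 11.21, 11.4 and 13.7 CPM in WT and rose from 11.15, 11.7 and 12.4 to 17.6, 16.4 and 14.8 in TAZKo (interaction 1.02 ± 0.13, adjusted p = 0.00171), a complete crossing. Cth, which makes cysteine from cystathionine, rose in WT from 11.5, 13.9 and 11.6 to 15.7, 19.97 and 23.2 CPM and fell in TAZKo from 81.7, 90.1 and 75.7 to 56.6, 57.3 and 50.4. TAZKo stayed the higher genotype throughout (interaction -1.27 ± 0.17, adjusted p = 0.00207). The immediate-early gene Ier2 rose in WT from 15.9, 11.98 and 12.7 to 21.01, 25.6 and 26.5 CPM and fell in TAZKo from 32.1, 32.3 and 34.1 to 22.2, 23.1 and 23.3, ending with overlapping levels (interaction -1.37 ± 0.15, adjusted p = 0.000393). Kit, a receptor tyrosine kinase gene, began level and parted in hypoxia, at 8.20, 10.4 and 9.61 CPM in WT and 3.01, 3.77 and 3.31 in TAZKo, from 3.94, 5.53 and 5.11 and from 4.75, 5.11 and 4.76 (interaction -1.48 ± 0.20, adjusted p = 0.00185).

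Mitochondrial lists held almost no gene past the interaction threshold, which 2.43% of all genes tested passed. The count past the threshold was 0 of 78 nuclear respiratory chain subunits, 0 of 77 mitochondrial ribosomal proteins, 0 of 29 TCA cycle genes, 0 of 23 fatty acid oxidation genes and 0 of 14 genes of cardiolipin synthesis and remodelling by edgeR, with 1, 5, 1, 2 and 1 genes at an unadjusted p under 0.05. DESeq2 gave 2 of the fatty acid oxidation genes, both lower, and 0 in the other 4 lists. Of the 78 respiratory chain subunits, 53 fell and 3 rose in WT, and 43 fell and 3 rose in TAZKo, with median responses of -0.32 and -0.24. Lonp1, the matrix protease, was the 1 of 18 mitochondrial chaperones and proteases that passed (interaction -0.59, adjusted p = 0.00998), with a difference of 0.57 in normoxia and -0.02 in hypoxia. Also at 0 were 82 cytosolic ribosomal proteins, 46 replication and mitosis genes and 44 lysosome and autophagy genes, with 5, 2 and 10 at an unadjusted p under 0.05, and DESeq2 gave 5 of the lysosome and autophagy genes, all higher, and 0 in the other pair of lists. A count of 0 does not show that the responses were equal, and in the shorter lists it lies near the share of all genes. In all, the 33 pathway lists other than the immediate-early list held 900 distinct tested genes and 75 of the 350. The other 275 belonged to none of these 33 lists, though some were in the immediate-early list or a marker list.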

How the data were processed

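RNA-seq gene counts from 12 libraries of mouse embryonic fibroblasts were used, 3 in each combination of genotype label and oxygen condition. Per the labels' protocols, RNA was taken up in Trizol and libraries were made with the TruSeq RNA v2 kit, which does not mark strand, so reads of overlapping or antisense genes cannot be told apart. The authors deposited raw counts per gene, aligned to mm10 per the submitters' processing notes; the aligner, the counting program and the annotation release are not given in the sources used here. The tables held 48709 genes, 48349 with a symbol. Totals per library bounded the precision, since 3 counts are 0.0927 to 0.1501 CPM.

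Counts were filtered with filterByExpr, leaving 14408 genes, scaled with TMM and fitted over all 12 libraries with the quasi-likelihood F test of edgeR 4.0.16 (limma 3.58.1, R 4.3.3), with 1 mean per group and p-values adjusted by Benjamini-Hochberg over all genes tested (threshold 0.05). The biological coefficient of variation was 8.62%. The interaction, both responses and both genotype differences were contrasts of that fit. SE is the log2 change divided by the square root of F, and CPM values are TMM-scaled. List levels are means of log2 CPM with a prior count of 2. Responses were called opposite where both passed with different signs; other genes were classed by the genotype with the larger fitted response and by its sign, so a smaller rise in TAZKo includes genes whose TAZKo response did not pass. The scripts were tested on simulated data.

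The members, the gene lists and the tests were chosen with earlier results of these data known, and the immediate-early list was added after the values were seen. Named genes were 15 fixed genes, up to 6 per list, up to 12 in each direction with at least 10 CPM in a group and non-overlapping responses, and up to 12 with opposite responses, 97 in all. Sequences and promoter entries are from RefSeq (GRCm38.p6); shared reads were estimated from 50-base words of the transcripts. The alternatives tried were the DESeq2 1.42.0 Wald test, scaling by library size alone, by upper quartile or by DESeq2's size factors, no filter on low counts, a mean of at least 5 CPM, a log2 change of at least 1, a replicate block, the lane as a covariate and leaving out each library; GC and length offsets, with and without the block, and thinning to the lowest total were chosen after seeing the data.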

Additional observations from a re-analysis of the deposited data

Results flagged for a closer look

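The test of the difference between the hypoxia responses passed for 350 genes. Genes whose 2 responses passed in opposite directions included Mlkl (interaction -2.16), Kit (-1.48), Ier2 (-1.37), Ifi203 (-1.301), Cth (-1.27), Dusp6 (-1.24) and Hebp2 (-0.96), which rose in WT and fell in TAZKo. Those that fell in WT and rose in TAZKo included Inka2 (1.02), Krt7 (1.51), Wnt9a (1.51), Gm26863 (1.66) and Hcn3 (2.42). Kit, Ier2, Cth, Dusp6, Hebp2, Inka2 and Wnt9a passed in all 12 fits that left out 1 library. Mlkl passed in 3 of those 12, Ifi203 in 4, Krt7 in 6, Gm26863 in 2 and Hcn3 in 4.

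Mlkl, which executes necroptosis, had 1.68, 1.05 and 1.30 CPM in WT normoxia, 1.95, 2.20 and 2.29 in WT hypoxia, 0.337, 0.433 and 0.247 in TAZKo normoxia and 0.0972, 0.0692 and 0.174 in TAZKo hypoxia. The last group reached the level of 3 counts, so its fitted change depends on the prior count. Hcn3 stayed under 1 CPM in every library, and Gm26863 shares 46.3% of its 50-base words and 49.4% of its exons with other genes or the opposite strand. The keratin gene Krt7 had 5.04, 5.00 and 5.25 CPM in WT normoxia, 2.35, 4.04 and 3.02 in WT hypoxia, 0.463, 0.693 and 0.587 in TAZKo normoxia and 1.12, 1.003 and 0.976 in TAZKo hypoxia, so WT remained the higher genotype.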

How the results depend on the processing

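All 350 genes kept their direction wherever they could be fitted, but their number moved from 350 (104 higher, 246 lower) to 578 (243 higher) with the DESeq2 Wald test, 727 (400 higher) with no filter, 914 (383 higher, 531 lower) with GC and length offsets and 82 (18 higher, 64 lower) at a log2 change of at least 1. Leaving out 1 library gave 174 to 711 genes, 47 to 415 higher and 123 to 368 lower. At a log2 change of at least 1, 1610 genes responded in WT and 1216 in TAZKo, and 858 differed between genotypes in normoxia and 839 in hypoxia. The median of the HIF targets moved from -0.17 to -0.13 with upper quartile scaling or thinning, -0.12 with no filter and -0.10 at a mean of 5 CPM, and lay between -0.19 and -0.12 without 1 library; that of the cholesterol genes lay between -0.75 and -0.61. Lower members numbered 10 to 19 for ATF4 effectors and 4 to 8 for HIF targets without 1 library, and 11 for HIF targets with GC and length offsets. The causes were not tested, beyond the smaller number of samples or genes that some alternatives imply. Of 97 named genes, 89 passed, 60 of them in all 12 fits without 1 library, 80 under all 11 other alternatives, and 0 of the 89 changed sign; Hif1a and Slc2a1, which did not pass, did. Genes near the level of 3 counts are limited by depth.

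Libraries of different groups share a number in the labels, but only 10 of 18 same-number pairs had correlated deviations above 0.1 (mean 0.13). Deviations were taken from group means, so the mean for different numbers, -0.06, largely follows from that value and adds no evidence. Of 12 libraries, 9 correlated best with their own number, a hint from the data and not the design. All 3 pairs were above 0.1 between WT normoxia and WT hypoxia (0.15 to 0.37) and between WT normoxia and TAZKo normoxia (0.15 to 0.35), and with the block 8032 genes had a hypoxia response in WT and 5212 a genotype difference in normoxia. With the replicate block, 639 genes passed (272 higher), and with the block and GC and length offsets 1171 (524 higher, 647 lower), including 20 ATF4 effectors and 11 HIF targets that were lower. The share of higher genes was 42.6% with the block, 41.9% with the offsets and 39.9% after thinning. Libraries 1, 2 and 3 were on lanes 4, 4 and 5 in both normoxic groups and on lanes 4, 5 and 5 in both hypoxic groups. Lane was therefore partly confounded with oxygen in each genotype. With the lane as a covariate, 374 genes passed the interaction threshold (123 higher).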

Other observations

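Interferon-stimulated and antigen presentation genes differed between the genotype labels at both oxygen levels, with a like fall of the list's mean level. Of 30 tested, 19 were higher in TAZKo in normoxia (15.6% of all genes were) and 21 in hypoxia (15.8%), with median differences of 0.72 and 0.86. The list's mean level fell by 0.34 in WT and by 0.35 in TAZKo. Single members had interactions on both sides of 0 (13 below, against 7587 of all 14408 genes tested). By edgeR 2 members had a lower interaction (1.71% of all genes did) and 0 a higher one. An unadjusted p under 0.05 was found by edgeR for 11, against 2273 of all 14408 genes tested. DESeq2 gave 2 lower and 3 higher. The 2 lower members were Ifit2, an interferon-induced RNA-binding protein gene (interaction -0.70), and H2-K1, a class I antigen-presenting gene (-0.74). H2-K1 rose from 31.2, 24.6 and 25.9 to 151, 150.2 and 163 CPM in WT and from 29.6, 29.0 and 30.9 to 109, 97.8 and 97.99 in TAZKo, so its genotype groups overlapped in normoxia and not in hypoxia.

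The 7 mitochondrially encoded respiratory chain genes tested had a median interaction of -0.30, which was -0.04 without WT normoxia library 1, -0.45 without WT normoxia library 3 and -0.10 with GC and length offsets, with 0 past the threshold by edgeR or DESeq2 and 1 with an unadjusted p under 0.05. Their mean level had an SD of 0.57 in WT normoxia, against 0.05 in TAZKo hypoxia (log2, n = 3), and the share of counts on mitochondrial genes was lowest in WT normoxia library 1, at 0.921%.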
